A study of Mus musculus with 4 samples.

Results

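The genes examined here encode the enzymes that carry triose phosphate to pyruvate and lactate, the lower part of glycolysis: Tpi1, Gapdh, Pgk1, Pgam1, the enolases Eno1, Eno2 and Eno3, Pkm, and the lactate dehydrogenases Ldha and Ldhb. They were chosen by symbol, and all 10 were among the 24391 genes of each count file. RNA was sequenced from 2 lung tumour samples labelled K-Ras, from mice with the K-RasLSL-G12D allele (a mutant K-Ras gene behind a lox-stop-lox cassette, silent until Cre recombinase removes the stop), and from 2 samples labelled K-Ras Mll4-/-, from mice with K-RasLSL-G12D and floxed Mll4 (Mll4fl/fl). Every sample carried the K-Ras allele, so no group was free of the oncogene. Tumours had been digested to single cells, lysed for red cells and depleted of CD45-bearing leukocytes before RNA extraction. How Cre was delivered, the strain, the age and sex of the mice, and whether the samples came from different mice are not given in the sources used here, so p-values measure only the spread between these samples, which may be technical.

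Glycolysis splits glucose into trioses, and the steps from triose phosphate onward are those that yield ATP and pyruvate. Gapdh reduces NAD to NADH, and lactate dehydrogenase returns NADH to NAD by turning pyruvate into lactate, so the end of the pathway lets the middle continue when respiration lags. Tumours commonly make much lactate even in oxygen, and the genes of these enzymes are textbook targets of the hypoxia-inducible factors and of Myc. Mll4, now named Kmt2d, is a histone lysine methyltransferase that acts mainly at enhancers.

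Reads assigned to genes numbered between 26683033 and 36677987 per sample, so 3 reads, taken as the lowest number that shows a transcript, correspond to at most 0.114 CPM, counting error only. CPM, the usual counts scaled to a fixed library total, were computed here after TMM adjustment (trimmed mean of M values) of the library sizes. The targeted gene Kmt2d was at 367 and 317 CPM in K-Ras Mll4-/- and at 395 and 526 CPM in K-Ras, lower in both but not called (log2 fold change -0.43, edgeR quasi-likelihood adjusted p = 0.302). With offsets for GC content and length the log2 fold change was -0.07. Counts per gene do not resolve the loss of floxed exons, so this does not check the label. The alveolar type 2 markers of lung epithelium were abundant in every sample, with a summed level of 25473 to 25884 CPM in K-Ras Mll4-/- and 19443 to 29677 CPM in K-Ras. K-Ras replicate 2 stood apart in airway genes: its 6 ciliated cell markers summed to 529.9 CPM. That sum was 93.4 CPM in K-Ras replicate 1 and 52.4 and 53.7 CPM in K-Ras Mll4-/-, so both K-Ras Mll4-/- samples were the lowest. The 4 club cell markers of K-Ras replicate 2 summed to 3588 CPM, against 566 to 743 CPM in the other samples.

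Promoter sequence is shown first for 5 enzyme genes, 4 of which were higher in K-Ras Mll4-/- and 1 of which (Ldhb) was lower. The sequences are RefSeq's, of the mouse build GRCm38.p6, and each is the 250 bases before an annotated start, 5′ to 3′ on the gene's strand: Ldha at chr7:46845554-46845803 on the plus strand (the first of 2 windows of that gene), Pgk1 at chrX:106186850-106187099 on the plus strand, Pgam1 at chr19:41911621-41911870 on the plus strand, Tpi1 at chr6:124814159-124814408 on the minus strand and Ldhb at chr6:142507958-142508207 on the minus strand. Capitals mark ACGTG on either strand, a form of the core of the sites that the hypoxia-inducible factors bind. Within CACGTG it is also part of the E-box that Myc binds. The other form of the core, GCGTG, was neither marked nor counted.
Ldha: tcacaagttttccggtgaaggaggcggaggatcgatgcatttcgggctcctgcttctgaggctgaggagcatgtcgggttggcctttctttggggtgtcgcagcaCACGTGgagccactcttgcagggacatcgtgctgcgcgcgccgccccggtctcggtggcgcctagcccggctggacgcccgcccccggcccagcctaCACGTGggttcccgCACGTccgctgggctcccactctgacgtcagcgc
Pgk1: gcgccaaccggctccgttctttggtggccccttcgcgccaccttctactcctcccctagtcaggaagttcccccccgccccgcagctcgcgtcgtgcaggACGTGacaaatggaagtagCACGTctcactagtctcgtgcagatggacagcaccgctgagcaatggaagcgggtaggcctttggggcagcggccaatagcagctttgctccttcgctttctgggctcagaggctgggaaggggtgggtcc
Pgam1: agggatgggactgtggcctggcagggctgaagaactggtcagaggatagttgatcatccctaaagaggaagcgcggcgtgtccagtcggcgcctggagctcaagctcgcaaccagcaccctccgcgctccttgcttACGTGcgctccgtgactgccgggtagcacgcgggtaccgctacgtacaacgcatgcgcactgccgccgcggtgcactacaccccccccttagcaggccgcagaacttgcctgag
Tpi1: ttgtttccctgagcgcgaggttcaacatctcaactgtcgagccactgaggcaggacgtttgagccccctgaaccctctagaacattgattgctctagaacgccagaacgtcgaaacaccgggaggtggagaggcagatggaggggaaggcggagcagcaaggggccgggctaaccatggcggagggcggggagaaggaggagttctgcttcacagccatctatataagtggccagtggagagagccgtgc
Ldhb: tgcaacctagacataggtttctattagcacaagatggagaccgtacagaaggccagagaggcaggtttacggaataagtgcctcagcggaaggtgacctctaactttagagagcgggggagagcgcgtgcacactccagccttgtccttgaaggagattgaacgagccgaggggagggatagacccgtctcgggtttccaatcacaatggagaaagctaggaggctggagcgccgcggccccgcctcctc
The Ldha window held 5 matches to ACGTG counted on both strands, of which 2 overlapping pairs formed CACGTG. The Pgk1 window held 2 matches, the Pgam1 window 1, and the Tpi1 and Ldhb windows none. Over all windows, 4 of the 10 enzyme genes (Pgk1, Pgam1, Pkm and Ldha) held ACGTG in at least 1 window, against 18.5% of the 27025 genes with a window of the same length. CACGTG was found for 1 of the 10, against 6.9% of genes. A match is a description of these letters and not a binding site. No match to ACGTG was found for Gapdh, Tpi1 and Eno1, which were higher in K-Ras Mll4-/-, or for Eno2, Eno3 and Ldhb, which were lower. These genes may still hold GCGTG, which was not counted, and the part of either form in the levels was not tested.

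For each step of the route, 1 gene was higher in both K-Ras Mll4-/- samples than in both K-Ras samples (Tpi1, Gapdh, Pgk1, Pgam1, Eno1, Pkm and Ldha), while the other enolases and the other lactate dehydrogenase (Eno2, Eno3 and Ldhb) were lower in both. With the reads of the copy Eno1b added to Eno1, the genes higher without overlap numbered 6. All 10 passed the filter on low counts, and their median log2 fold change, K-Ras Mll4-/- minus K-Ras, was 1.20, against -0.01 over the 16001 genes tested. Groups that did not overlap were common in these data: 29.9% of all genes tested were higher without overlap and 28.5% were lower without overlap. With edgeR's quasi-likelihood F test none of the 10 had an adjusted p under 0.05, and neither did all but 6 genes (0.0375%). All 7 higher genes differed by at least 1 on the log2 scale, as did 5.03% of all genes upward, while none of the 3 lower ones reached -1, as 8.55% of all genes did. At an unadjusted p under 0.05 the same test picked 7 of the 10, all higher, against 11.4% of all genes, and none of the 3 lower ones, against 10.4%. DESeq2 called the same 7 genes higher and none lower, in a fit that called 5.23% of genes higher and 5.18% lower. The edgeR likelihood ratio test also called these 7, and it called 4.85% of genes higher. Limma-voom called 0 of the 10 and 0 genes in all, with 3159 genes at an unadjusted p under 0.05. Leaving out 1 sample changed these counts: without K-Ras replicate 1 the edgeR test called 528 genes, 3 of them among the 10 (Eno1, Pgam1 and Pgk1), and without any 1 of the other samples it called 0, with 965 to 3549 genes at an unadjusted p under 0.05. With 1 sample left in a group, that sample is assumed to vary like the other group.

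**Figure D1:**
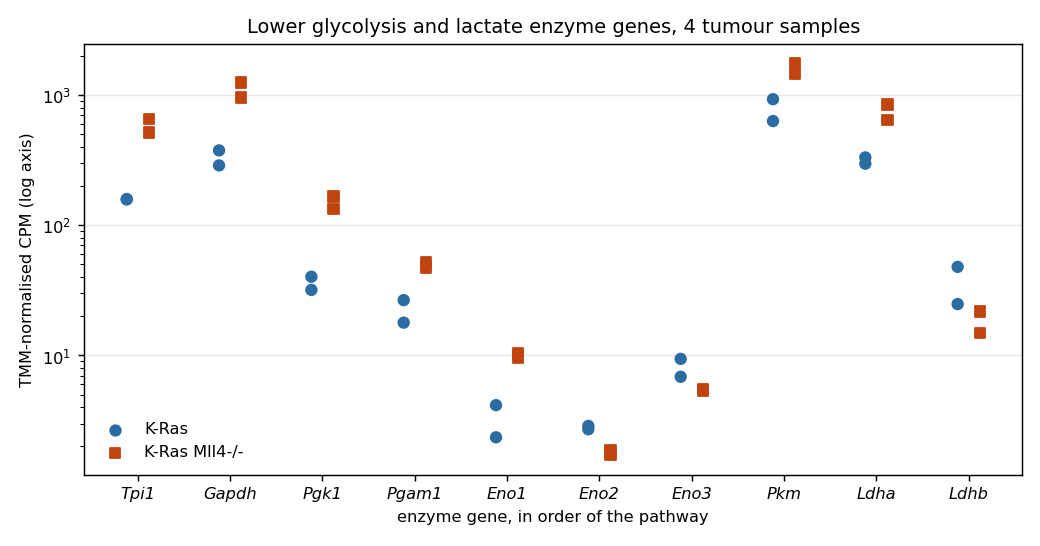
TMM-normalised CPM (log axis) of the 10 enzyme genes in pathway order, 1 point per sample, circles for K-Ras and squares for K-Ras Mll4-/-. The squares lie above the circles for Tpi1, Gapdh, Pgk1, Pgam1, Eno1, Pkm and Ldha and below them for Eno2, Eno3 and Ldhb.

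Triose phosphate isomerase, the product of Tpi1, interconverts the pair of trioses so that both can go on down the pathway. Tpi1 was at 514 and 658 CPM in K-Ras Mll4-/- and at 158 and 159 CPM in K-Ras. The K-Ras samples were nearly equal and the lower K-Ras Mll4-/- sample was well above both. The means were 586 ± 101 and 159 ± 0.755 CPM (SD, n = 2 in each group). The log2 fold change was 1.89 (SE 0.19, edgeR adjusted p = 0.116). By read number Tpi1 ranked 215 and 146 among all genes in K-Ras Mll4-/- and 1190 and 1281 in K-Ras. Tpi1 overlaps its neighbour Spsb2 in RefSeq, and the strand setting of the counts is not given. Whether reads from the overlap were counted for Tpi1 or left out is therefore not known.

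Gapdh, which oxidises glyceraldehyde phosphate and makes NADH, is also widely used as a reference gene. It was at 961 and 1246 CPM in K-Ras Mll4-/- and at 376 and 289 CPM in K-Ras, with no overlap (log2 fold change 1.73, SE 0.25, edgeR adjusted p = 0.135). Of 12 other genes in common use as references, 9 were also higher in both K-Ras Mll4-/- samples, but by less, with a median log2 fold change of 0.33 and a highest value of 0.66 (Ywhaz). Without K-Ras replicate 1 that median was 0.53. The edgeR quasi-likelihood test called none of the 12, and DESeq2 and edgeR's likelihood ratio test both called 1, Ywhaz. Rpl13a (0.65) and Actb (0.48) followed Ywhaz. Relative to each of these 12 genes, Gapdh was higher in K-Ras Mll4-/- by at least 1.04 on the log2 scale, the value against Rpl13a. Against Actb, the log2 ratio of Gapdh to the reference was -2.55 and -2.11 in K-Ras Mll4-/- and -3.51 and -3.64 in K-Ras.

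Pgk1, an X-linked gene whose product phosphoglycerate kinase makes the first ATP of the payoff phase, had the largest log2 fold change of the 10. Its level was 133 and 167 CPM in K-Ras Mll4-/- and 40.3 and 31.9 CPM in K-Ras, about 4.17-fold higher (log2 fold change 2.06, SE 0.20, edgeR adjusted p = 0.116). The lowest K-Ras Mll4-/- sample was above the highest K-Ras sample. Pgam1, the phosphoglycerate mutase that moves the phosphate along the carbon chain, was at 47.5 and 51.7 CPM against 26.6 and 17.9 CPM (log2 fold change 1.16, SE 0.23, edgeR adjusted p = 0.153). Its K-Ras samples differed from each other more than its K-Ras Mll4-/- samples did.

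Enolase makes phosphoenolpyruvate, and its 3 genes differ in where they are used: Eno1 in most tissues, Eno2 in neurons and neuroendocrine cells, and Eno3 in muscle. Eno1 was at 9.67 and 10.5 CPM in K-Ras Mll4-/- and at 4.15 and 2.35 CPM in K-Ras (log2 fold change 1.63, SE 0.35, edgeR adjusted p = 0.156). These levels rest on 85 to 337 reads per sample. Eno2 was lower, at 1.71 and 1.86 CPM against 2.88 and 2.71 CPM (log2 fold change -0.64, SE 0.31, edgeR adjusted p = 0.300), on 45 to 98 reads. Eno3 was at 5.52 and 5.37 CPM against 9.42 and 6.86 CPM (log2 fold change -0.58, SE 0.27, edgeR adjusted p = 0.280). Without K-Ras replicate 1 the Eno3 value was -0.33. Eno3 overlaps its neighbour Pfn1 in RefSeq, so its reads are also uncertain at that end.

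Markers of the cells in which Eno2 and Eno3 are best known were scarce. The 8 neuroendocrine and neuronal markers summed to 5.12 to 5.45 CPM in K-Ras Mll4-/- and 6.28 to 7.78 CPM in K-Ras, so the sum moved with Eno2. Most of that difference was Calca, at 0.229 and 0.403 CPM against 2.03 and 1.69 CPM. Of the other 2 markers that passed the count filter, Syp was lower without overlap and Uchl1 overlapped, and Snap25, which did not pass, was higher without overlap. Chga, Chgb, Insm1 and Snap25 were each at or below 0.495 CPM in every sample. The 9 skeletal and cardiac muscle markers summed to 5.83 to 8.32 CPM in K-Ras Mll4-/- and 5.56 to 6.75 CPM in K-Ras, which overlap, and Myh2 had no read in any sample. The part of such cells in the Eno2 and Eno3 values was not tested, and in tumour tissue fewer cells of a type and less RNA per cell cannot be told apart.

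Pkm encodes the muscle-type pyruvate kinases, which make pyruvate and ATP and come in alternatively spliced forms that a total count per gene does not separate. Not corrected for length, it had the most reads of the 10 in every sample, at 1451 and 1748 CPM in K-Ras Mll4-/- and 930 and 632 CPM in K-Ras. The groups did not overlap (log2 fold change 1.03, SE 0.27, edgeR adjusted p = 0.175), and Pkm had the smallest log2 fold change of the 7 higher genes. By reads it ranked 40 and 30 among all genes in K-Ras Mll4-/- and 71 and 138 in K-Ras. For the splicing factors known to act on Pkm, log2 fold changes were 0.31 for Ptbp1, 0.31 for Hnrnpa2b1, 0.07 for Srsf3 and -0.13 for Hnrnpa1. Ptbp1, Hnrnpa2b1 and Srsf3 were higher without overlap, as were 29.9% of all genes tested. Hnrnpa1 was lower without overlap, as were 28.5%. The edgeR quasi-likelihood test called none of these splicing factor genes.

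Ldha encodes the lactate dehydrogenase subunit of muscle and tumours, and Ldhb that of the heart, which favours the conversion of lactate to pyruvate. Ldha was at 645 and 847 CPM in K-Ras Mll4-/- and at 297 and 332 CPM in K-Ras (log2 fold change 1.24, SE 0.21, edgeR adjusted p = 0.147). Ldhb went the other way, at 21.9 and 14.9 CPM against 24.8 and 47.9 CPM (log2 fold change -0.99, SE 0.39, edgeR adjusted p = 0.244). The highest K-Ras Mll4-/- value of Ldhb lay close under the lowest K-Ras value, and K-Ras replicate 2, the sample rich in airway markers, held by far the most Ldhb. Without that sample the Ldhb log2 fold change was -0.45, and the part of airway cells in it was not tested. Divided by exonic length, Ldhb made up 4.69% and 2.49% of the lactate dehydrogenase reads in K-Ras Mll4-/- and 10.8% and 17.3% in K-Ras. The means were 3.59% ± 1.56 and 14.1% ± 4.60 (SD, n = 2 each), and an exact two-sided permutation test gave p = 0.333, the smallest that 2 samples against 2 allow.

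To set the levels of different genes side by side, CPM were divided by exonic length. Reads that aligned to several places are not in these levels, and their part in the order was not tested. In K-Ras the order from the top was Pkm (358 and 243 CPM per kilobase in replicates 1 and 2), Gapdh (252 and 193), Ldha (157 and 175), Tpi1 (89.6 and 90.2), Ldhb (19.0 and 36.8), Pgk1 (22.1 and 17.5), Pgam1 (15.0 and 10.1), Eno3 (6.01 and 4.38), Eno1 (1.63 and 0.924) and Eno2 (1.03 and 0.970). Pkm and Gapdh, Ldhb and Pgk1, and Eno1 and Eno2 were neighbours whose ranges overlapped. In K-Ras Mll4-/- the order was Gapdh (643 and 834), Pkm (558 and 672), Ldha (340 and 447), Tpi1 (292 and 373), Pgk1 (73.1 and 91.6), Pgam1 (26.8 and 29.1), Ldhb (16.8 and 11.4), Eno1 (3.80 and 4.11), Eno3 (3.53 and 3.43) and Eno2 (0.613 and 0.666). Gapdh and Pkm overlapped there, as did Ldha and Tpi1. Together the 10 genes took 0.373% and 0.466% of all gene reads in K-Ras Mll4-/- and 0.197% and 0.150% in K-Ras.

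The number of reads credited to such genes depends on their copies. Retrotransposition has scattered processed copies (intronless copies of the spliced mRNA, most of them pseudogenes) of several glycolytic genes through the mouse genome, and a read that aligns equally well to a gene and a copy has no single place. Among the transcripts of GENCODE M21 (GRCm38), genes that match at least 50% of the coding sequence at 80% identity or more numbered 309 for Gapdh, 26 for Ldha, 11 for Eno1, 10 for Pkm, 6 for Tpi1, 5 for Pgam1, 3 for Pgk1, 1 for Ldhb and 0 for Eno2 and Eno3. What matters for counting is the exact sequence. Of all stretches of 50 bases in the Gapdh transcript, 90.4% also occurred in another annotated gene, against 72.2% for Eno1, 68.0% for Pgk1, 41.5% for Pgam1, 34.4% for Pkm, 27% for Ldhb, 16.6% for Ldha, 7.5% for Tpi1, 0.3% for Eno2 and 0.0% for Eno3. With stretches of 100 bases the shares of Gapdh (85.8%), Pgk1 (67.0%) and Eno1 (59.0%) stayed high, while those of Pkm (9.8%) and Ldha (1.3%) became small. The read length is not given in the sources used here. The isoenzymes do not share such stretches with each other: the coding sequences of the enolases were 75.1% to 77.4% identical, Ldha and Ldhb were 65.6% identical, and no stretch of 50 bases was common to any of these pairs.

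**Figure D2:**
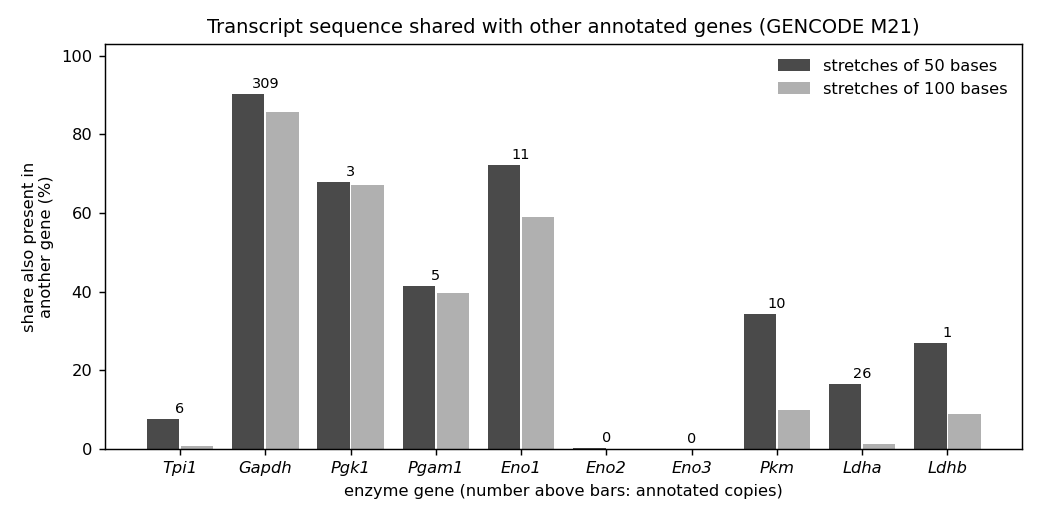
Share of the 50-base and 100-base stretches of each enzyme transcript that also occur in another gene of GENCODE M21, in percent, with the number of annotated copies above the bars. Gapdh, Eno1 and Pgk1 share most of their sequence, and Eno2 and Eno3 almost none.

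In the deposited files, reads that aligned to more than 1 place were tallied apart from the genes. That tally was 86.4 and 79.0 per 100 gene reads in K-Ras Mll4-/- and 106 and 98.3 in K-Ras, so it moved with the groups. Its direction was opposite to that of all 7 higher enzyme genes and the same as that of Eno2, Eno3 and Ldhb. Among those 7, the share of 50-base stretches found in another gene ran from 7.5% (Tpi1) to 90.4% (Gapdh). The part of the tally in the results was not tested.

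Eno1 is the gene whose value turned on a copy. Eno1b, a copy annotated as protein-coding and 99.4% identical to the Eno1 coding sequence where they align, shares 70.5% of the 50-base stretches of the Eno1 transcript. Eno1b had 2 and 3 reads in K-Ras Mll4-/- and 231 and 173 reads in K-Ras, or 0.0762 and 0.0931 CPM against 7.55 and 4.79 CPM. The K-Ras level was 70.8 times the K-Ras Mll4-/- level, with a 95% exact interval of 30.1 to 219 that covers counting error only, and the edgeR quasi-likelihood test did not call the difference (adjusted p = 0.0884). It was called under 6 of 14 alternatives, DESeq2 and the likelihood ratio test among them, with edgeR, DESeq2 and limma adjusted p from 1.1e-14 to 0.600. Of the reads on Eno1 and Eno1b together, Eno1b held 64.5% and 67.1% in K-Ras and 0.781% and 0.882% in K-Ras Mll4-/-. Added together, the 2 genes came to 9.75 and 10.5 CPM in K-Ras Mll4-/- and 11.7 and 7.14 CPM in K-Ras. These sums overlap, and the log2 fold change of Eno1 with Eno1b added was 0.11 (SE 0.30), against 1.63 for Eno1 alone. A difference in Eno1 transcript and a different division of reads between the 2 genes cannot be told apart here. RefSeq lists Eno1 among the older names of Eno1b.

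The copies of the other enzymes that the files list held few reads. Peli2, Vmn2r60 and Zfp738, genes of their own with a transcript that contains a Gapdh copy, are among the 309 but were not treated as listed copies. Of 10 listed Gapdh copies, 4 passed the count filter (3000002C10Rik, Gm5069, Gm6498 and Gm6981), each at no more than 2.99 CPM with groups that overlapped, and their log2 fold changes ran from -0.32 to 0.18. With them added, Gapdh had a log2 fold change of 1.71. Gm13315, a copy of Ldha, was at 1.03 and 2.30 CPM in K-Ras Mll4-/- and 0.392 and 0.360 CPM in K-Ras (log2 fold change 2.14, SE 0.57, edgeR adjusted p = 0.177), the same direction as Ldha. None of the copies found for Tpi1, Pgk1, Pgam1, Pkm and Ldhb was among the counted genes under its GENCODE symbol, so no reads of these copies could be added.

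**Figure D3:**
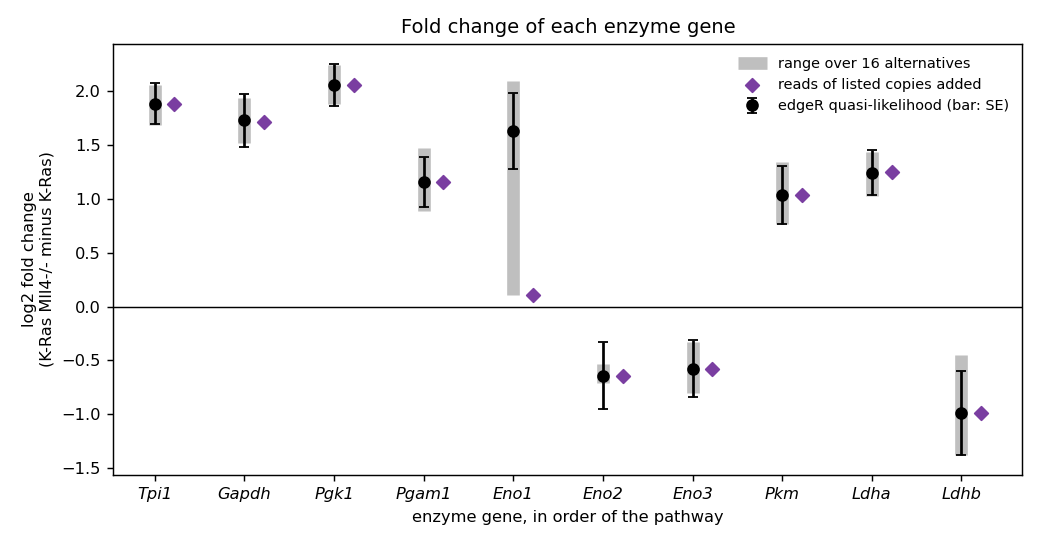
Log2 fold change of each enzyme gene, K-Ras Mll4-/- minus K-Ras, with its SE (black), the range over the 16 alternatives (grey) and the value after the reads of listed copies were added (diamonds). With copies added Eno1 goes from 1.63 to 0.11 and Gapdh from 1.73 to 1.71, and no gene changes sign under any of the 16.

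The make-up of the enolase pool shows the same dependence. Per kilobase of exon, Eno1 was 47.9% and 50.1% of the enolase reads in K-Ras Mll4-/- and 18.8% and 14.7% in K-Ras, while Eno3 was 44.4% and 41.8% against 69.3% and 69.8%. Reads that aligned to several places are in none of these shares. Of the 50-base stretches, 72.2% of those of Eno1 also occurred in another gene, against 0.0% for Eno3. The part of such reads in the shares was not tested. With Eno1b added to Eno1, the Eno1 share in K-Ras was 39.5% and 34.4%, still below the 48.1% and 50.3% of K-Ras Mll4-/-. The difference in the mean Eno1 share was 32.2 percentage points without Eno1b and 12.2 with it, and each had an exact two-sided permutation p of 0.333, the smallest possible.

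**Figure D4:**
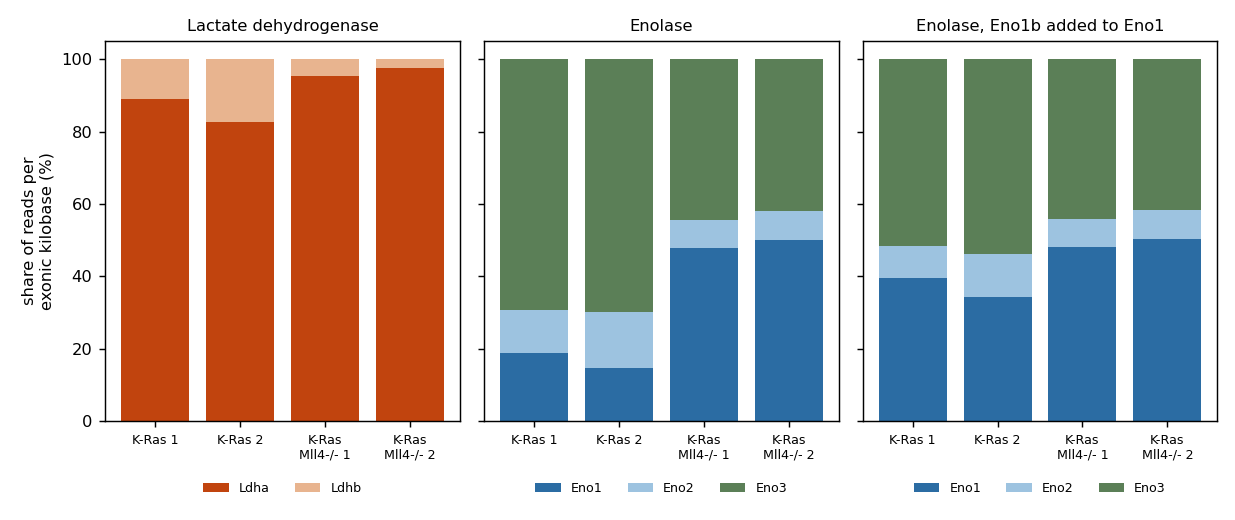
Share of each isoenzyme gene in the lactate dehydrogenase reads (left), in the enolase reads (middle) and in the enolase reads with Eno1b added to Eno1 (right), in percent of reads per exonic kilobase, 1 bar per sample. Ldhb is at most 4.69% in the K-Ras Mll4-/- samples and at least 10.8% in the K-Ras samples, and the Eno1 share of the K-Ras samples is larger with Eno1b than without.

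The rest of the pathway was examined through lists. Beside the counts of every list stand the shares over all genes tested: 29.9% were higher and 28.5% lower without overlap. DESeq2 called 5.23% of genes higher and 5.18% lower, and edgeR's likelihood ratio test called 4.85% higher. Upper glycolysis brings glucose in and cleaves it, and of its 15 genes 14 were tested: the edgeR quasi-likelihood test called none, while DESeq2 and edgeR's likelihood ratio test both called 6 higher and 1 lower. Without overlap, 8 were higher and 2 lower, and the median log2 fold change was 0.52. Pfkp, the platelet-type phosphofructokinase, was at 161 and 184 CPM in K-Ras Mll4-/- and 79.5 and 69.5 CPM in K-Ras (log2 fold change 1.21, edgeR adjusted p = 0.128), and Gpi1, the glucose phosphate isomerase, at 574 and 775 against 313 and 290 CPM (1.16).

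Of 8 isoenzymes and related enzymes of the same steps that are known from restricted tissues, 5 were tested. Gapdhs (-0.27), Pgam2 (-0.44), Bpgm (0.24), Eno4 (-2.15) and Ldhd (2.29) were not called by the edgeR quasi-likelihood test, while DESeq2 and edgeR's likelihood ratio test both called Ldhd and Eno4. Pklr and Ldhc were at or below 0.830 CPM. Pgk2, the testis phosphoglycerate kinase, had no read in any sample. Eno4, an enolase of sperm, was at 18.8 CPM in K-Ras replicate 2 and at 2.32 to 4.87 CPM in the other samples, so it moved with the ciliated cell markers, whose part was not tested. Ldhd, a mitochondrial dehydrogenase of the D form of lactate, was at 22.3 and 38.6 CPM in K-Ras Mll4-/- and 5.23 and 7.19 CPM in K-Ras (edgeR adjusted p = 0.144). Bpgm, which makes the phosphoglycerate that tunes haemoglobin, was at 30.3 to 42.4 CPM in every sample. Of the 8 erythroid markers, the globin genes Hbb-bs, Hbb-bt, Hbb-b2 and Hba-a1 had no read in any sample. The globin genes Hbb-b1 and Hba-a2 had at most 6 reads. Reads that aligned to several places are not in these counts, so they do not show that globin RNA was absent. The other markers were present: Alas2 was at 14.1 and 20.1 CPM in K-Ras Mll4-/- and 31.4 and 7.08 CPM in K-Ras. Slc4a1 was at 0.387 to 4.06 CPM.

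Transport and onward use of pyruvate and lactate were covered by 16 genes, all tested. The edgeR quasi-likelihood test called none of them, and DESeq2 and edgeR's likelihood ratio test both called 4, all higher. Without overlap 8 were higher and 0 lower, and the median log2 fold change was 0.23. Slc16a3, the lactate exporter of glycolytic cells, was at 63.9 and 70.1 CPM in K-Ras Mll4-/- and 27.8 and 30.3 CPM in K-Ras (log2 fold change 1.21, SE 0.13, edgeR adjusted p = 0.116). Bsg, the chaperone that brings such exporters to the membrane, had a log2 fold change of 0.85, and Pdk1, the kinase that restrains pyruvate dehydrogenase, one of 0.89. Slc16a1, a lactate transporter used for uptake as well as export, overlapped between the groups.

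Among 11 regulators, 6 were higher and 4 lower without overlap. The edgeR quasi-likelihood test called none, and DESeq2 and edgeR's likelihood ratio test both called 1 higher (Myc) and 2 lower (Epas1 and Mlxipl). The median log2 fold change was 0.22, and it was 0.34 without K-Ras replicate 1 and 0.09 without K-Ras replicate 2. Myc was at 63.8 and 66.1 CPM in K-Ras Mll4-/- and 33.4 and 34.4 CPM in K-Ras (log2 fold change 0.94, SE 0.12, edgeR adjusted p = 0.128), and its partner Max had a log2 fold change of 0.29. The transcript of Hif1a overlapped between the groups (0.22), although that factor is set mainly by the stability of its protein. Epas1, the related factor abundant in endothelium, was lower (-0.94), at 1113 and 976 CPM against 1732 and 2277 CPM, and of the 7 endothelial markers 5 were lower without overlap and 2 overlapped (Kdr and Emcn), with summed levels of 2481 to 3209 CPM in K-Ras Mll4-/- and 4291 to 4485 CPM in K-Ras. Their part in the Epas1 value was not tested. Arnt, the shared partner of both factors, had a log2 fold change of -0.21, Mlxipl, a glucose-sensing factor, one of -2.17 below 3 CPM, and Tigar, which lowers fructose bisphosphate, one of 0.70.

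Of 11 other targets of the hypoxia-inducible factors, 8 were higher and 1 lower without overlap, and the median log2 fold change was 0.59. The edgeR quasi-likelihood test called none, and DESeq2 and edgeR's likelihood ratio test both called 4 higher, Car9, Egln3 and Ndrg1 among them. Car9, a carbonic anhydrase of hypoxic cells, was at 17.7 and 14.6 CPM in K-Ras Mll4-/- and 1.41 and 2.63 CPM in K-Ras (log2 fold change 2.99, SE 0.38, edgeR adjusted p = 0.128). Egln3, an oxygen-sensing prolyl hydroxylase, had a log2 fold change of 2.33 and Ndrg1 one of 1.72.

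**Figure D5:**
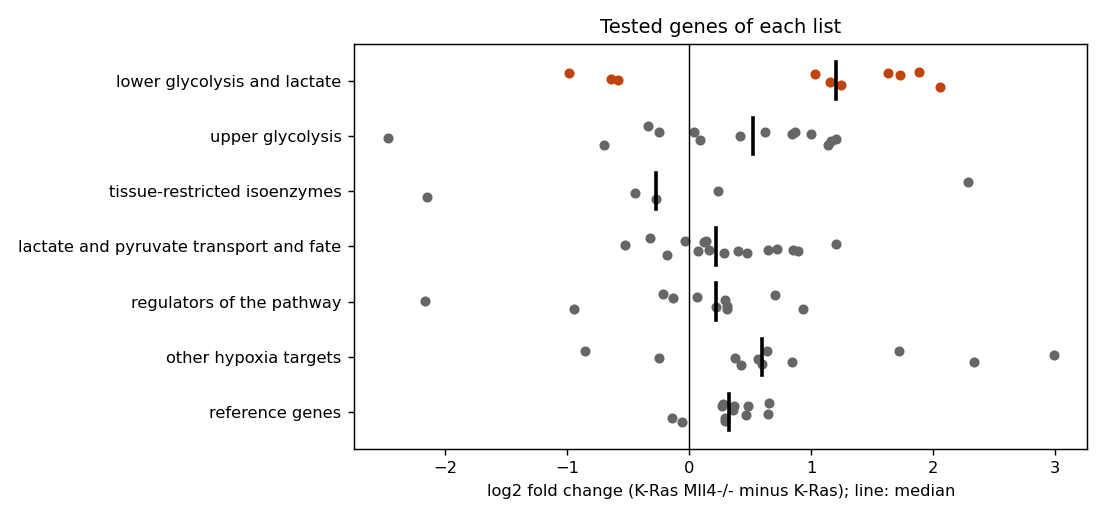
Log2 fold change (K-Ras Mll4-/- minus K-Ras) of each tested gene, by list, with the list's median as a line. The 10 lower glycolysis and lactate genes fall in a higher group of 7 and a lower group of 3, with a median of 1.20, beside 0.33 for the reference genes (0.53 without K-Ras replicate 1).

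Markers of other cells moved with the groups. All 8 markers of proliferating cells were higher without overlap in K-Ras Mll4-/-, with summed levels of 384 to 406 CPM against 216 to 229 CPM, in the same direction as the 7 enzymes. Of the 7 fibroblast and smooth muscle markers 6 were lower without overlap, at 889 to 896 CPM against 1197 to 2534 CPM. All 6 ciliated cell markers were lower without overlap in K-Ras Mll4-/-, as were 28.5% of all genes tested. Of the 4 club cell markers 2 were lower without overlap and 2 overlapped. Leukocyte and macrophage markers were present after depletion, and their summed levels overlapped between the groups (297 to 419 against 308 to 587 CPM, and 896 to 3791 against 561 to 6568 CPM). Of the 9 leukocyte markers 3 were lower without overlap (Itgam, S100a8 and S100a9) and 6 overlapped. Of the 4 mesothelial markers, Msln was at 120 and 221 CPM against 13.8 and 17.0 CPM, and the other 3 (Upk3b, Wt1 and Lrrn4) were at or below 0.654 CPM in every sample, with lower means in K-Ras Mll4-/-. The summed alveolar type 1 markers, at 1172 to 1264 against 1090 to 1459 CPM, and the summed erythroid markers, at 15.7 to 24.4 against 7.53 to 34.2 CPM, overlapped. Single alveolar type 1 markers went opposite ways: Ager and Cav1 were lower without overlap, Aqp5 and Rtkn2 higher without overlap, and Hopx and Pdpn overlapped. Among the 8 alveolar type 2 markers, Sftpb was higher without overlap, Sftpa1 and Napsa were lower without overlap, and 5 overlapped. The part of these cell types in the enzyme values was not tested. Without K-Ras replicate 2, the sample rich in airway markers, the same 7 enzymes were higher and the same 3 lower, with a median log2 fold change of 1.07.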

How the data were processed

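Each deposited file held whole-number counts of reads by gene symbol for 1 sample, and the submitters' processing notes name CASAVA 1.4, STAR, HTSeq and the mouse build mm9, with no settings, annotation or strand rule. The 5 closing tally lines of each file, 60.1% to 65.6% of its total, were kept out of library sizes and tests. The members and gene lists were chosen with earlier results of these data known.

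Both groups were fitted together with edgeR 4.0.16 in R 4.3.3: default count filter, TMM scaling, robust quasi-likelihood test, Benjamini-Hochberg adjustment over 16001 genes, called at an adjusted p under 0.05. The SE is the log2 fold change over the square root of F. Alternatives used DESeq2 1.42.0, limma 3.58.1 and mgcv 1.9.3. The fits were tested on simulated data. Gene lengths and copies came from GENCODE M21 (GRCm38, not the authors' build), matched by symbol for 98.5% of genes. Copies were searched with BLAST, and 50-base and 100-base stretches on both strands.

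Named genes were all members, their listed copies, every tissue-restricted isoenzyme and regulator, the 3 largest absolute fold changes of each other list, the 5 genes nearest in profile, and Kmt2d. Spsb2, Pfn1, Peli2, Vmn2r60, Zfp738, Slc16a1 and the marker genes were named outside that rule, and 1 gene that it picks is not reported here. Chi-square statistics per gene of 47.3 and 122 between replicates showed that they were not repeat counts of 1 library.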

Additional observations from a re-analysis of the deposited data

How the results depend on the processing

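The sign of each of the 10 log2 fold changes was the same under all 16 alternatives, and the 3 lower genes were called in none of them. With copies added, 6 of the 10 were higher without overlap and 6 had an unadjusted p under 0.05. Without copies added, 29.9% of all genes tested were higher without overlap. By the edgeR quasi-likelihood test 11.4% were higher at an unadjusted p under 0.05. Against 6 genes called in all and 0 of the 10, a filter of 1 read in any sample called 44 and 2 (Pgk1 and Tpi1), the edgeR likelihood ratio test 1503 and 7, DESeq2 1601 and 7, and limma-voom 0 genes in all, with 3159 at an unadjusted p under 0.05. Leaving out 1 sample in turn gave 0 to 528 genes in all, 0 to 3 of the 10, and a median log2 fold change of 1.06 to 1.41. With the replicate number as a block, 217 genes and 2 of the 10 were called (Pgk1 and Tpi1), and with the replicate block and offsets for GC content and length together 426 and 3 (Ldha, Pgk1 and Tpi1). The numbers are shared labels only: with 2 pairs, deviations of same-numbered samples correlated at 0.21 across genes, and the labels do not say what a number marks.

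From raw reads, not divided by length, the difference in share was 35.7 percentage points for Eno1 and -9.79 for Eno2. With copies added it was 12.2 for Eno1, -2.48 for Eno2 and -9.76 for Eno3. Signs reversed for 3000002C10Rik, to -0.0418 with total counts, -0.0451 with the upper quartile and -0.0059 with the replicate block, and for Srsf3, to -0.061 with GC and length offsets and -0.0588 with the block as well. Leaving out 1 sample in turn, the log2 fold change ran from -0.26 to 0.23 for 3000002C10Rik, -1.16 to 0.20 for Gm6498, -0.30 to 0.92 for Gm6981, -0.59 to 0.12 for Gm5069, -0.60 to 0.11 for Gapdhs and -0.0061 to 0.47 for Hif1a. The cause was not tested. Counts were low for Eno1, Eno2 and Eno3, with at most 337 reads in any sample.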

Other observations

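The genes whose pattern over the 4 samples lay nearest to the mean pattern of the 10 enzymes were looked for by the Euclidean distance between log2 CPM values, each centred on its own mean. That mean averages 7 enzymes that were higher in K-Ras Mll4-/- with 3 that were lower, so it is the pattern of neither set. No enzyme lay closer to it than 0.32. The nearest genes, which therefore do not share the pattern of a given enzyme, were Pigf (distance 0.03), Mcm2 (0.04), Chek2 (0.05), Prelid1 (0.06) and Ndufa5 (0.07). Mcm2 unwinds DNA at replication origins, Chek2 encodes a checkpoint kinase, and Ndufa5 a subunit of respiratory complex I. Prelid1, a carrier of phospholipid in mitochondria, was at 176 and 200 CPM in K-Ras Mll4-/- and 106 and 92.4 CPM in K-Ras, and Pigf at 6.21 and 6.76 against 3.86 and 3.24 CPM. Among the enzymes themselves, Pkm (0.32) and Pgam1 (0.41) lay nearest to their common mean and Ldhb (2.04) farthest.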
